A study of Rattus norvegicus with 12 samples.

Results

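Eviprostat, a plant-based preparation prescribed for benign prostatic hyperplasia, was compared with vehicle in the prostate of rats whose bladder outlet had been partly obstructed. The comparison rests on 6 of the 12 arrays of the study, the 3 labelled obstruction/Eviprostat against the 3 labelled obstruction/vehicle, chosen by their titles and described across 14677 named genes. The rats were males of 10 weeks, and a rubber ring tied around the urethra close to the bladder made the obstruction that both groups carried. Dosing began on the day after surgery and lasted 5 days, with 18 mg/kg per dose and 2 doses a day (36 mg/kg in all) of Eviprostat, or with 0.1% Tween 80 as vehicle, and the prostate was removed 2 h after the last dose. The other 6 arrays held sham-operated rats given vehicle or Eviprostat, whose dosing started 5 days after their operation.

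Several features of the design limit what a difference between these arrays stands for. Each group held 5 or 6 animals, but the RNA that was labelled came from tissue pooled within a group, so the p-values below measure the spread between arrays and not between animals. Each array carried the RNA of its own group in the red dye Cy5 and sham/vehicle RNA in the green dye Cy3, and no dyes were swapped. The sham/vehicle RNA was labelled from 1500 ng and the RNA of every other group from 300 ng. The 3 arrays of a group lay on 3 slides, 1 array of each group per slide, always at the same position, so group and position cannot be told apart. The rat strain and the prostate lobe are not given in the sources used here.

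The rat prostate is a secretory gland in which luminal epithelial cells, under androgen control, make large amounts of exported protein, and in which basal cells, smooth muscle, fibroblasts and a few resident leukocytes surround them. In injured or inflamed tissue, interleukin-1 and ligands of pattern receptors free the transcription factor NF-kappa-B from its inhibitor, and epithelial and stromal cells then release chemokines that draw in neutrophils and monocytes. The arrays address what Eviprostat does to the transcripts of an obstructed gland. A log2 ratio below means Cy5 over Cy3 on one array after normalization, and a difference means the mean of the Eviprostat arrays minus the mean of the vehicle arrays, with its standard error (SE) and 3 arrays a group. In such tissue RNA, fewer cells of a type and less RNA per cell cannot be told apart.

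The falls were more numerous and much larger than the rises. A gene was called where limma's adjusted p over all probes was below 0.05. Of the 14677 genes, 1184 were called lower with Eviprostat (8.07%) and 637 higher (4.34%), and the median difference over all genes was 0. At least 2-fold falls numbered 549 (3.74%) and at least 2-fold rises 63 (0.429%). In the ratio, the steepest fall was 132-fold, in Cxcl2, and the steepest rise 10.4-fold, in Mmp7; in Cy5 alone Svs5 and Svs3a fell further than Cxcl2 (-9.59 and -8.86 against -8.81). Genes called lower varied more between the obstruction/vehicle arrays (median SD 0.36 on the log2 scale) than between the obstruction/Eviprostat arrays (0.09), against 0.20 and 0.09 over all genes. The shared SE does not show this, as in Cxcl1, with SD 1.24 on the vehicle arrays and 0.04 on the Eviprostat arrays.

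Slide 2 gave smaller differences than the other slides. Within slide 1, 764 genes were lower by at least 1 on the log2 scale, within slide 2 273 and within slide 3 885. The same-numbered arrays share a slide, and their deviations from the group means correlated over genes at r = 0.54, 0.16 and 0.38. Slide 1 was scanned on a different day from slides 2 and 3, and across slides 2 and 3 Eviprostat array 2 and vehicle array 3 correlated at 0.33, so slide and scan day are not separated by these values. Slides 2 and 3 alone, scanned on 1 day, gave 2109 probes higher and 2210 lower, and slide 1 holds 1 array a group and allows no test. The paired fit over all slides, with the replicate block, called 4121 probes higher and 4373 lower in place of 1409 and 2127. Leaving out the second obstruction/vehicle array raised the counts to 2608 and 3766. With median centring of each array instead of loess 132 were higher and 1197 lower, so that 90.1% of called probes were lower rather than 60.2%, and the scanner software's own log ratio gave 7821 and 5700. The scanner's ratio raised many list counts below by over 1.5 times, and so, for fewer lists, did the replicate block, no background correction and leaving out vehicle array 2; these settings are repeated beside a list only in part. A rise named below kept its call under median centring only where that is stated.

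**Figure D1:**
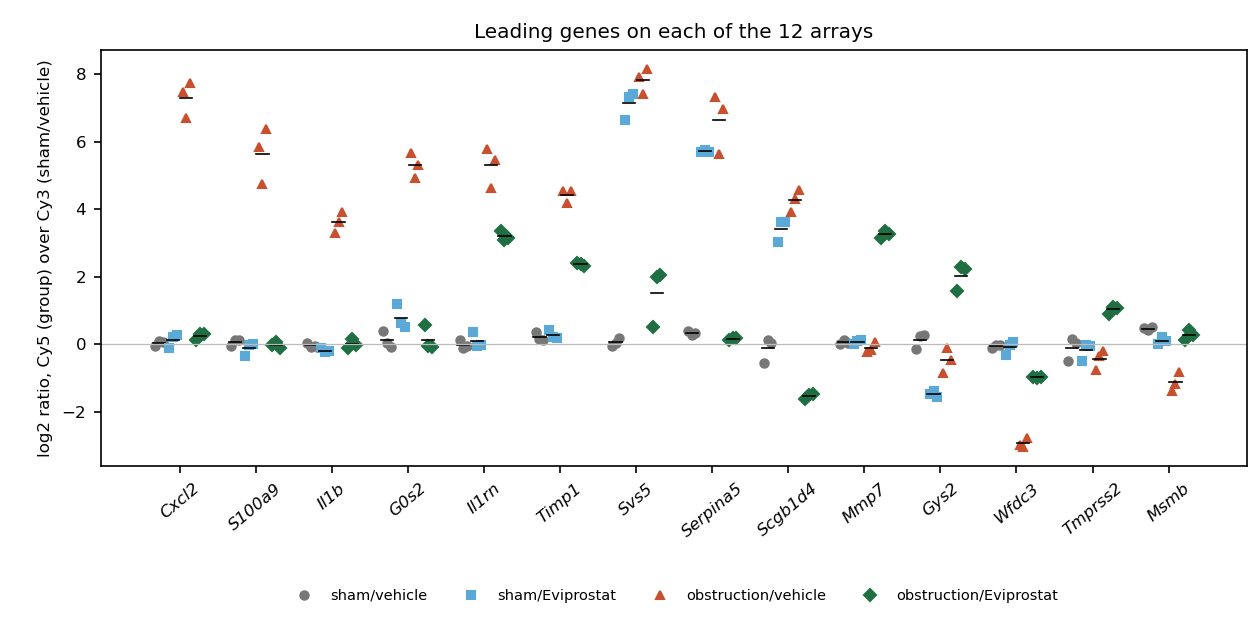
Log2 ratio of Cy5 to Cy3 (vertical axis) of 14 genes on each of the 12 arrays, coloured by group, with a bar at each group mean. Cxcl2 lay between 6.71 and 7.73 on the obstruction/vehicle arrays and between 0.14 and 0.32 on the obstruction/Eviprostat arrays, while Mmp7 lay between -0.24 and 0.07 and between 3.14 and 3.37.

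Among secreted signals of inflammation, the neutrophil-attracting chemokines Cxcl2 and Cxcl1 had large falls in the ratio. Cxcl2 stood at log2 ratios of 7.49, 6.71 and 7.73 on the vehicle arrays of slides 1, 2 and 3 and at 0.14, 0.32 and 0.32 on the Eviprostat arrays, a difference of -7.05 ± 0.21 (limma adjusted p = 1.85e-09), on a probe that the array design places at chromosome 14, 18677236 to 18677295 of rn3. Cxcl1, its neighbour in the same chemokine cluster, read 5.59, 3.38 and 5.45 with vehicle and 0.09, 0.01 and 0.04 with Eviprostat (-4.76 ± 0.42, adjusted p = 2.14e-05). The groups lay far apart for both genes, and the second vehicle array was the lowest of its group in each. Ccl2, which attracts monocytes, kept more of its signal, with 0.27, 1.05 and 1.1 on the Eviprostat arrays against 4.76, 2.38 and 4.95.

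The interleukin-1 system was represented by its agonists, its antagonist and its receptors. Il1b read 3.31, 3.64 and 3.92 with vehicle and -0.11, 0.17 and -0.03 with Eviprostat, a 12.3-fold difference. Il1a, the second agonist, differed by -2.76 ± 0.34 (limma adjusted p = 0.000264), and the decoy receptor Il1r2 by -3 ± 0.23 (6.91e-06). Il1rn, the receptor antagonist, fell too, but stayed high: it read 5.80, 4.63 and 5.47 with vehicle and 3.37, 3.09 and 3.14 with Eviprostat, where the difference from sham/vehicle was 3.21 (adjusted p = 6.93e-05). Over its 2 kept probes Il1rn had a median difference of -1.56 in place of -2.10. The signalling receptor Il1r1 differed by 0.16 ± 0.13 (adjusted p = 0.533). In all, 7 of 17 interleukin-1 family genes fell and 0 rose (list median -0.40). This count dropped to 4 on slides 2 and 3 alone, with only the 6 arrays, and also without vehicle array 1 or 3 or any 1 of the Eviprostat arrays (arrays are numbered by slide).

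The NF-kappa-B list of subunits, inhibitors and feedback genes had 11 of 16 genes lower and 0 higher, with a median of -0.87. Nfkbia, the inhibitor that NF-kappa-B itself induces, read 2.20, 2.37 and 2.64 with vehicle and -0.03, 0.03 and -0.13 with Eviprostat (-2.45 ± 0.12, limma adjusted p = 1.76e-07 on its brightest probe, and a median of -1.80 over its probes). Tnip1, another inhibitor, differed by -1.14 ± 0.15 and the inhibitor of apoptosis Birc3 by -1.91 ± 0.32. Nfkb2, a precursor subunit, fell by 1.09 ± 0.10, a call lost with median centring (adjusted p = 0.075), and its probes had a median of -0.61. Rela, the main activating subunit, differed by -0.55 ± 0.30 and was not called (adjusted p = 0.311), although it was with the replicate block (0.00021). The list count was 7 with median centring and on slides 2 and 3 alone.

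The promoters of some of these genes are shown because they hold the letters of the factor whose inhibitors fell. A stretch of 120 bases within the 250 before the start is given for 6 genes that were lower with Eviprostat. It runs 5′ to 3′ on the gene's strand, from RefSeq on GRCr8, with the NF-kappa-B consensus of either strand in capitals. The last base shown lies 44 bases before the start in Cxcl2, 54 in Cxcl1, 2 in Nfkbia, 55 in Tnip1, 1 in Nfkb2 and 39 in Il6. Cxcl2 is at chr14:17467299-17467418 on the minus strand, Cxcl1 at chr14:17479375-17479494 on the minus strand and Nfkbia at chr6:78597074-78597193 on the minus strand. Tnip1 is at chr10:39585016-39585135 on the minus strand, Nfkb2 at chr1:255108254-255108373 on the plus strand and Il6 at chr4:5894614-5894733 on the minus strand.
Cxcl2: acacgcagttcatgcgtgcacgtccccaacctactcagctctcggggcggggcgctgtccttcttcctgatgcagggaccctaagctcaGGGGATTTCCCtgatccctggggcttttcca
Cxcl1: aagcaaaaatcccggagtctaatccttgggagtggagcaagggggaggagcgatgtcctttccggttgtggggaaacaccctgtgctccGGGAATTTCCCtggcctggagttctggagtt
Nfkbia: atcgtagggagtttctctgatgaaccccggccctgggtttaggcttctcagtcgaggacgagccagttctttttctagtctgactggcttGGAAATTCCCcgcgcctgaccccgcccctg
Tnip1: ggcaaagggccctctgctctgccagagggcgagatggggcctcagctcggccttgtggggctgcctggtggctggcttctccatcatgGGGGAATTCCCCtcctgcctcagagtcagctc
Nfkb2: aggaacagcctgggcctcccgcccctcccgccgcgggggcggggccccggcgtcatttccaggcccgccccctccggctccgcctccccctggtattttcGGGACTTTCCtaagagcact
Il6: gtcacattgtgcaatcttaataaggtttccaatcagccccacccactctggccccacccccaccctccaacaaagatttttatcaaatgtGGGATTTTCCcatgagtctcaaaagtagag
The consensus, searched by name on both strands in the 250 bases before the start, occurred in 5 of the 9 lower genes of the list whose promoter was in the table (55.6%), namely Nfkbia, Tnip1, Nfkb2, Nfkbie and Rel, of which Nfkbie and Rel lost their calls with median centring and on slides 2 and 3 alone. It occurred in 7.88% of the 11836 promoters of measured genes and in 6.41% of all 27457. The list was chosen for known ties to NF-kappa-B and is not a sample of promoters, and no share was taken over its uncalled members. A match is a description of these letters and not a site shown to be bound.

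The interleukin-6 and STAT3 list had 9 of 22 genes lower and 0 higher (median -0.33). Il6 itself read 1.81, 0.37 and 2.08 with vehicle and 0.03, -0.03 and -0.02 with Eviprostat, where no array had its probe well above background and Cy5 was therefore at least 3.91-fold lower. The call of Il6 (limma adjusted p = 0.0138) did not hold when slide 1 was left out (0.119), when only the 6 arrays were fitted (0.0851) or when vehicle array 1 or 3 or Eviprostat array 2 or 3 was left out (0.0541 to 0.0618). Cebpd, a transcription factor of the acute phase response, was steadier: it read 3.48, 3.25 and 3.67 against -0.02, 0.25 and 0.22 (-3.31 ± 0.11, adjusted p = 9.6e-09). The kinase Pim1, a STAT3 target, differed by -3.09 ± 0.40 and Cebpb, a related factor, by -1.53 ± 0.20. The feedback inhibitor Socs3, at -1.12 ± 0.31 (adjusted p = 0.0397), had overlapping groups and lost its call under several alternatives, among them slides 2 and 3 alone (0.0513). The list count was 5 with median centring, 4 with only the 6 arrays, and 4 or 5 without vehicle array 1 or Eviprostat array 2 or 3.

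Immediate early genes, which answer signals within minutes to hours, had 14 of 28 members lower and 0 higher (median -0.72), with 8 under median centring. Junb, an AP-1 subunit, read 2.07, 1.63 and 2.38 with vehicle and -0.02, -0.04 and 0.02 with Eviprostat (-2.04 ± 0.16, limma adjusted p = 6.32e-06). Atf3, a stress-induced repressor, differed by -2.14 ± 0.35, Jun by -1.51 ± 0.11 and the survival gene Ier3 by -1.65 ± 0.10. The phosphatases that switch off mitogen-activated protein kinases fell alongside, Dusp6 with a difference of -1.67 ± 0.22 and Dusp1 of -1.41 ± 0.26. Egr1, a growth factor response gene, differed by -0.75 ± 0.25 and was not called (adjusted p = 0.0821), although it was with the replicate block (0.023).

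Of the pattern recognition list, 8 of 19 genes were lower and 0 higher (median -0.40), and 5 were lower on slides 2 and 3 alone, with only the 6 arrays and with the stricter filter on dim probes. Tlr2, the receptor for bacterial lipopeptides, read 2.53, 1.64 and 2.00 with vehicle and 0.58, -0.16 and -0.15 with Eviprostat. Cd14, which hands lipopolysaccharide to Tlr4, differed by -1.81 ± 0.11 and its plasma carrier Lbp by -2.38 ± 0.35, whereas Tlr4 itself differed by -0.47 ± 0.21 (limma adjusted p = 0.206, and 0.00157 without vehicle array 2). The interferon response list had 10 of 31 genes lower and 0 higher (median -0.21), 5 with median centring and 6 without the third Eviprostat array, and with the replicate block 3 were higher. Its steepest member was Ifit1, an RNA-binding antiviral protein, at 3.61, 2.97 and 4.38 with vehicle against 0.01, 0.29 and 0.08 (-3.53 ± 0.27, adjusted p = 5.18e-06).

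Genes of phagocyte effector function formed the list with the largest share of falls among the non-marker lists described here. Of 21 genes for the phagocyte oxidase and Fc receptor signalling, 19 were lower and 0 higher (median -1.29), and leaving out any 1 array left between 15 and 20 lower. The immunoglobulin receptor Fcgr2b read 4.69, 3.35 and 5.31 with vehicle and 0.24, 0.97 and 0.95 with Eviprostat (-3.73 ± 0.38, limma adjusted p = 6.09e-05). Fcgr2a was 10.0-fold lower. Of the oxidase subunits, Cyba differed by -1.69 ± 0.13 and Ncf1 by -1.99 ± 0.31. Tnfrsf1b, a receptor for tumour necrosis factor found on leukocytes, fell 14.5-fold, from 4.77, 3.38 and 4.31 to 0.40, 0.30 and 0.19.

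**Figure D2:**
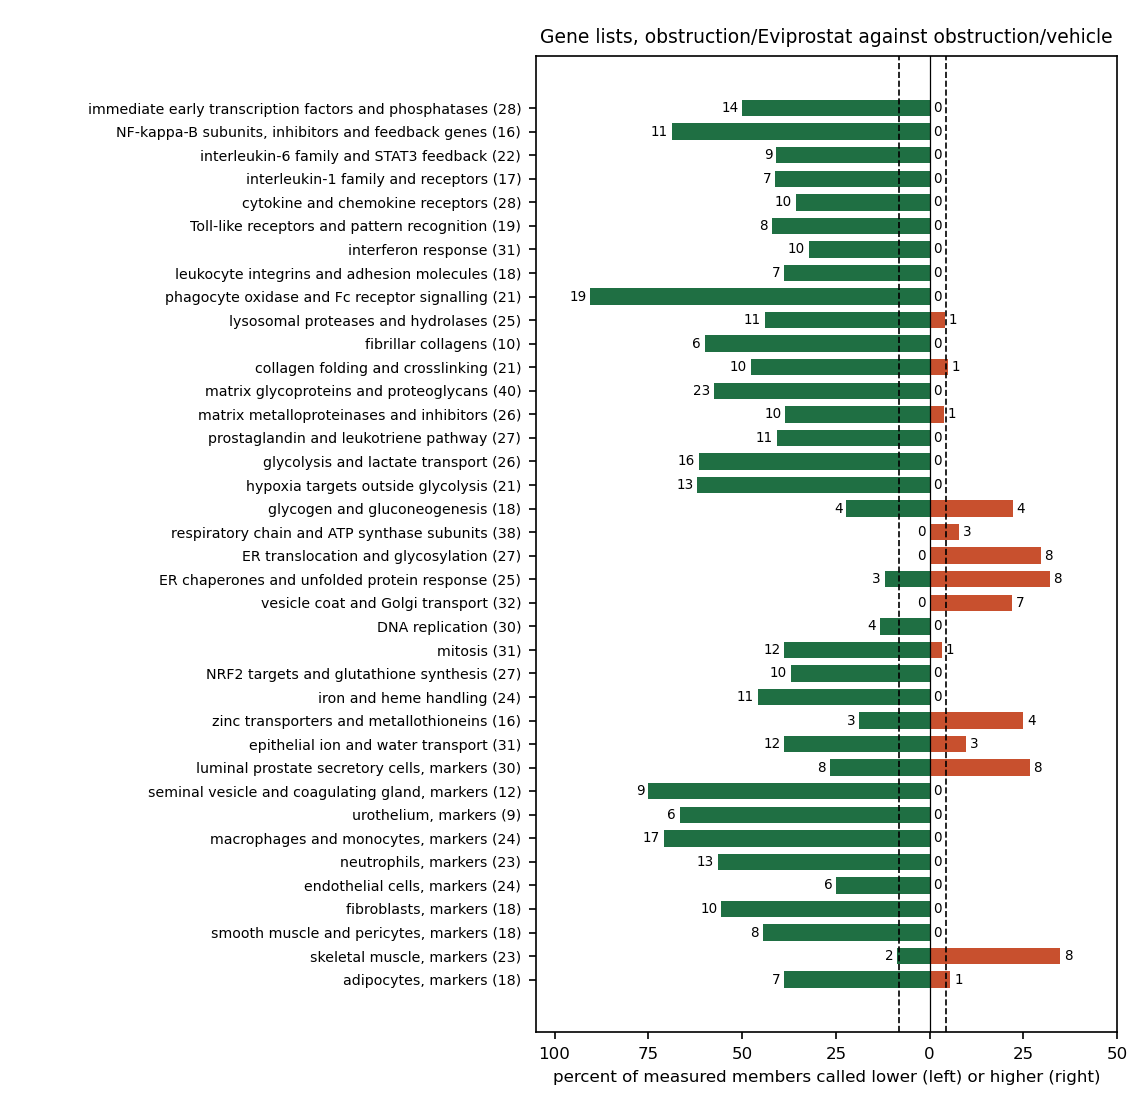
Share of measured genes called lower (bars to the left) and higher (bars to the right) with Eviprostat, in percent, for 38 gene lists, with the number of measured genes in brackets. Dashed lines mark the shares over all genes, 8.07% lower and 4.34% higher; the seminal vesicle and phagocyte lists reach farthest to the left and the skeletal muscle list, followed by the endoplasmic reticulum lists, farthest to the right.

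Leukocyte markers moved with these genes. Of 24 macrophage and monocyte markers 17 were lower and 0 higher (median -0.99), 9 with only the 6 arrays in the fit, and of 23 neutrophil markers 13 were lower and 0 higher (median -0.81). The summed macrophage level, as the mean log2 ratio over the list, was 1.64, 1.09 and 1.75 on the vehicle arrays and 0.32, 0.36 and 0.36 on the Eviprostat arrays. The mean of the neutrophil list was 1.58, 0.98 and 1.69 against 0.03, 0.05 and 0.01. For both lists each Eviprostat array lay below each vehicle array. The part of these cells in the falls of the inflammatory genes was not tested.

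The neutrophil marker S100a9, a subunit of calprotectin, read 5.85, 4.74 and 6.37 with vehicle and -0.03, 0.08 and -0.11 with Eviprostat (51.1-fold lower, limma adjusted p = 2.8e-07). Its partner S100a8 was at least 249-fold lower by Cy5, since its brightest probe did not rise clearly above background with Eviprostat, and its kept probes had a median difference of -3.38 against -5.23 on the brightest. Trem1, an amplifying receptor of neutrophils and monocytes, fell by 2.73 ± 0.30 on the log2 scale. Myeloperoxidase, Mpo, a granule enzyme made in the bone marrow, differed by -0.06 ± 0.17 (adjusted p = 0.881) and turned sign under some alternatives, none of which called it. Among macrophage genes, Gpnmb, of lipid-laden and phagocytic cells, read 4.84, 3.17 and 3.90 against 0.98, 0.53 and 0.54, and the lysozyme gene Lyz2 2.53, 2.59 and 2.93 against 0.48, 0.60 and 0.67. Of 24 T and NK cell markers 1 was lower and 1 higher (median -0.19), with 19 above background on all 6 arrays, and of 9 B and plasma cell markers 1 was lower and 0 higher. These lymphocyte counts lay near or below the shares over all genes, 8.07% lower and 4.34% higher. With the replicate block 5 of the T and NK cell markers were lower.

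Glycolysis was the metabolic pathway with the widest fall among the lists described here. Of 26 genes for glycolysis and lactate transport 16 were lower and 0 higher (median -0.81), and 10 were lower with median centring. The glucose importer Slc2a1 read 2.32, 2.01 and 2.36 with vehicle and 0, 0.08 and 0.03 with Eviprostat (-2.19 ± 0.10, limma adjusted p = 6.38e-08). The lactate exporter Slc16a3 fell from 3.09, 3.02 and 3.39 to -0.22, -0.12 and -0.22, and lactate dehydrogenase A, Ldha, was 3.79-fold lower. Between these ends of the pathway, phosphoglycerate kinase Pgk1 differed by -2.18 ± 0.13 and pyruvate kinase Pkm by -2.18 ± 0.16. The muscle phosphofructokinase Pfkm differed by 0.15 ± 0.12 (adjusted p = 0.525). Ldhb (-0.47, adjusted p = 0.0554) and Gpi (-0.74, adjusted p = 0.127) were called with the replicate block (0.000727 and 3.35e-05).

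Hypoxia-inducible genes outside glycolysis moved the same way, with 13 of 21 lower and 0 higher (median -0.86) and 8 lower with median centring. Adm, the vasodilator adrenomedullin, read 3.01, 2.20 and 2.97 with vehicle and -0.02, -0.19 and -0.21 with Eviprostat (-2.87 ± 0.17, limma adjusted p = 8.86e-07). Hmox1, the inducible heme oxygenase, read 2.58, 2.20 and 2.68 against 0.22, 0.07 and 0.09. Ero1a, which oxidizes protein disulfide isomerase, differed by -2.69 ± 0.30 on its brightest probe and by a median of -1.96 over its probes. Carbonic anhydrase Car9, a common hypoxia marker, differed by -0.14 (adjusted p = 0.363).

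The core letters ACGTG of the element bound by hypoxia-inducible factors were searched on both strands of the same 250 bases, and the stretches of Slc2a1 and Ldha are shown as the promoters of the glucose importer and of the lactate-forming enzyme. Slc2a1 is at chr5:138002376-138002495 on the plus strand and Ldha at chr1:106507924-106508043 on the plus strand on GRCr8, from RefSeq, with the core or its reverse complement in capitals; the capitals CACGTG in Ldha hold it on both strands.
Slc2a1: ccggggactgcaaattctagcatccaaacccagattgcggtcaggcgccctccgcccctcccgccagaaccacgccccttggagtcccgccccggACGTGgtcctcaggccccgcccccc
Ldha: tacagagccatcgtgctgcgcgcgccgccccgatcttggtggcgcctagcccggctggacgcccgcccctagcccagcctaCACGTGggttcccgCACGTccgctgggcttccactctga
The core occurred in 6 of the 15 lower glycolysis genes with a promoter in the table (40%) and in 6 of the 10 lower hypoxia genes (60%), against 19.8% of the promoters of measured genes and 16.9% of all. It was as frequent in some genes that rose, in 4 of 6 higher endoplasmic reticulum chaperone genes (66.7%) and in 3 of 6 higher vesicle coat genes (50%). The hypoxia and glycolysis lists were chosen for known responses to low oxygen and are not a sample of promoters.

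Structural genes of the extracellular matrix were lower in several lists. Of 10 fibrillar collagen genes 6 were lower and 0 higher (median -1.20), and of 40 matrix glycoproteins and proteoglycans 23 were lower and 0 higher (median -0.77), 15 with only the 6 arrays and without the second Eviprostat array. Of 15 other collagen genes 4 were lower and 0 higher (median -0.27), and 1 was lower with median centring. Col3a1, of reticular fibres, read 2.14, 2.48 and 2.86 with vehicle and 0.35, 0.46 and 0.51 with Eviprostat (-2.05 ± 0.20, limma adjusted p = 4.03e-05, and 0.0501 with median centring). Fibronectin, Fn1, read 3.18, 2.21 and 2.97 against 0.40, 0.77 and 0.64. Fibroblast markers were lower in 10 of 18 and higher in 0 (mean log2 ratio 0.97 to 1.44 on the vehicle arrays and 0.33 to 0.39 on the Eviprostat arrays), 6 with median centring. Smooth muscle markers were lower in 8 of 18 and higher in 0, but in 1 with median centring, in 14 with the replicate block, in 13 without the second vehicle array and in 5 without the first Eviprostat array.

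Enzymes that cut the matrix went both ways. Of 26 metalloproteinases and inhibitors 10 were lower and 1 higher (median -0.28), and 6 were lower with median centring and without vehicle array 3 or Eviprostat array 2 or 3. The single rise was Mmp7, matrilysin, an epithelial protease of many glands: it read -0.24, -0.17 and 0.07 with vehicle and 3.14, 3.37 and 3.27 with Eviprostat (3.38 ± 0.10, 10.4-fold, limma adjusted p = 1.85e-09). Mmp7 kept this call in every alternative run, median centring included, and differed by 0.01 between Eviprostat and vehicle in sham rats. Its Cy5 intensities were 7980, 32400 and 42300 on the vehicle arrays and 68000, 282000 and 331000 on the Eviprostat arrays, above the vehicle array of the same slide each time. Mmp9, the gelatinase of neutrophils and macrophages, read 2.45, 0.80 and 2.49 against 0.01, -0.17 and -0.08. The inhibitor Timp1 fell 4.13-fold but stayed high, at 2.40, 2.39 and 2.33 with Eviprostat, a difference of 2.16 from sham/vehicle (adjusted p = 5.1e-06).

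Arachidonic acid metabolism had 11 of 27 genes lower and 0 higher. Ptges, which makes prostaglandin E, differed by -1.73 ± 0.15 (limma adjusted p = 1.66e-05) and Alox5ap, needed for leukotriene synthesis, by -1.32. Ptgs2, the inducible cyclooxygenase, differed by -1.37 and lost its call on slides 2 and 3 alone (adjusted p = 0.16), with only the 6 arrays and without any 1 of them except vehicle array 2. The count of the list was 5 on slides 2 and 3 alone, and 7 with only the 6 arrays or without array 1 of either group. The list of adrenergic, muscarinic and purinergic receptors and phosphodiesterases holds the receptors through which bladder and prostate muscle are controlled. It had 5 of 37 genes lower and 0 higher (median -0.09), against 8.07% lower over all genes. Among the 5, Chrm3, the muscarinic receptor of contraction and secretion, differed by -1.32 and Pde4b, which breaks down cyclic AMP, by -1.13. For Chrm3 and Pde4b, as for Ptges and Alox5ap, the call held in every alternative run.

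Among the transcripts that identify luminal prostate cells, falls and rises were equally many: 8 of 30 markers were lower and 8 higher (median 0.01), with 26 of them above background on all 6 arrays, so the labelled tissue showed its own markers. With median centring 7 were lower and 1 higher. All of the lower ones except the claudin Cldn4, lost with median centring, encode secreted proteins. The secretoglobin Scgb1d4, which is not in this list, read 3.91, 4.31 and 4.57 with vehicle and -1.61, -1.51 and -1.47 with Eviprostat. Its Eviprostat arrays differed by -1.41 from sham/vehicle (limma adjusted p = 0.016). Scgb1d2, also outside the list, fell 28.3-fold. Within the list, Sbp, the spermine-binding protein, fell 14.1-fold, from 2.69, 2.76 and 3.17 to -0.98, -0.94 and -0.93. On the Eviprostat arrays Sbp differed by -1.05 from sham/vehicle (adjusted p = 0.00816). Secretoglobin, kallikrein and Spink genes have close relatives, and a probe may read more than the member it is named for.

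The rises among luminal markers included transcription factors and androgen-regulated secretory genes. Tmprss2, an androgen-induced membrane protease, read -0.75, -0.35 and -0.20 with vehicle and 0.91, 1.11 and 1.08 with Eviprostat (1.47 ± 0.19, limma adjusted p = 0.000387), and stood 1.14 above sham/vehicle (0.0292). Msmb, the secreted beta-microseminoprotein, read -1.38, -1.17 and -0.83 against 0.14, 0.42 and 0.29. The pioneer factor Foxa1 differed by 1.03 ± 0.14 and the homeobox factor Hoxb13 by 1.1 ± 0.21. In all 4 genes each Eviprostat array lay above each vehicle array; Hoxb13 kept its call with median centring. Fkbp5, an androgen-induced chaperone partner, differed by 0.94 ± 0.31 (limma adjusted p = 0.0823, and 1.11e-05 with the replicate block). Keratin Krt18 of luminal cells differed by 0.19 (0.555, and 0.0459 on slides 2 and 3 alone).

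Of the whey acidic protein genes, which encode small secreted protease inhibitors, 4 are given because of the size of their change and not as a counted list. Slpi, the secretory leukocyte protease inhibitor, read 5.05, 5.06 and 5.41 with vehicle and 0.33, 0.48 and 0.36 with Eviprostat (27.7-fold lower, limma adjusted p = 3.01e-10; it also counts in the seminal vesicle list), and Wfdc21 was 14.9-fold lower. Wfdc5 was 3.96-fold higher, from -2.17, -1.17 and -1.84 to 0.08, 0.41 and 0.29. Wfdc3 was 3.87-fold higher, from -2.97, -3.05 and -2.78 to -0.97, -1.01 and -0.96, still different from sham/vehicle by -0.93 (adjusted p = 0.00238). Both kept their call with median centring, but Wfdc3 lost it when the variance was given an intensity trend (0.694).

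Markers of the seminal vesicle and coagulating gland, kept as 1 list and called the seminal vesicle list here, showed the largest falls as a list. The list does not separate the 2 glands. Of 12 such markers 9 were lower and 0 higher (median -4.65), a count that ranged from 9 to 10 when any 1 array was left out, and 9 of the 12 were above background on all 6 arrays. The list mean was 4.26, 3.76 and 4.34 on the vehicle arrays and 0.35, 0.54 and 0.56 on the Eviprostat arrays. Its member Svs4 was bright on the sham/vehicle arrays too, with Cy5 of 129000, 585000 and 603000. Svs3a, a clotting protein of the copulatory plug, read 6.13, 6.26 and 6.44 against 0.24, 0.55 and 0.57 (-5.83 ± 0.13, limma adjusted p = 2.9e-10). Svs5 read 7.93, 7.43 and 8.15 against 0.52, 1.99 and 2.05, with Cy5 saturated on 2 of the vehicle arrays. Svs6, also saturated in Cy5 on 2 vehicle arrays, fell by 4.51 ± 0.31 as measured and remained 2.27 above sham/vehicle (adjusted p = 0.00816). Serpina5, the protein C inhibitor, outside this list, read 7.33, 5.64 and 6.96 against 0.12, 0.20 and 0.18 (88.8-fold lower; probe at chromosome 6, 128164924 to 128164983 on rn3).

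Markers of the bladder lining, fat and skeletal muscle moved as well. Of 9 urothelial markers, all above background on the 6 arrays, 6 were lower and 0 higher (median -0.51), but 3 with median centring, on slides 2 and 3 alone, with only the 6 arrays, without vehicle array 1 or 3 and without any 1 Eviprostat array. Uroplakin Upk3a, of the bladder lining, read 3.47, 2.76 and 3.65 with vehicle and -0.18, -0.37 and -0.47 with Eviprostat. Of 18 adipocyte markers 7 were lower and 1 higher, 4 lower on slides 2 and 3 alone and with only the 6 arrays, and the secreted protease adipsin, Cfd, read 3.64, 3.5 and 4.2 against 0.67, 0.85 and 0.79. The skeletal muscle list went the other way, with 8 of 23 higher and 2 lower (median 0.22), 2 higher with median centring and 5 higher without the third vehicle array or the first Eviprostat array. The muscle list mean was -0.65, -0.73 and -0.74 with vehicle and -0.30, -0.46 and -0.45 with Eviprostat. In sham rats it was also higher with Eviprostat, at 0.94 to 1.21 against -0.04 to 0.16 with vehicle. Parvalbumin, Pvalb, of fast muscle fibres, read -2.35, -1.87 and -2.89 against -0.41, -0.98 and -0.97 and kept its call with median centring. In sham rats Pvalb differed by 1.47 in the same direction (limma adjusted p = 0.0302). Myh7, the slow and cardiac myosin, read 2.18, 0.94 and 2.67 against -0.06, 0.02 and 0.12. How much of each sample was seminal vesicle, coagulating gland, bladder lining, fat or muscle is not given, and its part in the differences was not tested.

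Of 31 epithelial transport genes 12 were lower and 3 higher (median -0.18), and 9 and 0 with median centring. Slc26a4, the anion exchanger pendrin, read 3.95, 3.75 and 4.38 with vehicle and -0.08, -0.10 and -0.17 with Eviprostat (-4.14 ± 0.14, limma adjusted p = 8.27e-09). The membrane carbonic anhydrase Car4 read 3.21, 3.02 and 3.04 against 0.19, 0.15 and 0.17, and the water and glycerol channel Aqp3 differed by -2.70 ± 0.31. The calcium channel Trpv6 read 2.44, 1.74 and 2.94 against 0.03, 0.17 and 0.17. Slc2a5, the fructose carrier, went up: -1.94, -1.14 and -1.60 against 0.38, 0.34 and 0.29 (3.72-fold). Atp6v1g3, a proton pump subunit of acid-secreting cells, was 3.58-fold higher.

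Glycogen genes went both ways. Gys2, the liver form of glycogen synthase, read -0.86, -0.11 and -0.46 with vehicle and 1.57, 2.28 and 2.24 with Eviprostat (2.51 ± 0.21, limma adjusted p = 1.35e-05, with a median of 2.01 over its probes), and kept its call with median centring. It stood 1.90 above sham/vehicle on these arrays (0.00213), while in sham rats Eviprostat differed from vehicle by -1.59 (0.00251). Pygl, the liver form of the phosphorylase that breaks glycogen down, read 2.30, 0.76 and 2.67 against -0.10, 0.12 and 0.14, and lost its call on slides 2 and 3 alone (0.0837). In the list of glycogen and glucose synthesis 4 of 18 genes were lower and 4 higher. On slides 2 and 3 alone, and without the first or second Eviprostat array, 2 were lower, and 1 was higher with median centring.

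Several genes of protein export rose, by 2-fold at most, although the skeletal muscle list had a larger share of rises (8 of 23). Of 25 endoplasmic reticulum chaperone and unfolded protein genes 8 were higher and 3 lower (median 0.27), of 27 translocation and glycosylation genes 8 were higher and 0 lower (median 0.40), and of 32 vesicle coat and Golgi genes 7 were higher and 0 lower (median 0.19). Dnajc3, a co-chaperone that also restrains the kinase of translation arrest, read -0.82, -0.65 and -0.49 with vehicle and 0.31, 0.31 and 0.40 with Eviprostat (1.00 ± 0.10, limma adjusted p = 4.11e-05). Hyou1, a large chaperone of the heat shock 70 family, read -0.95, -0.91 and -0.65 against 0.07, 0.14 and 0.11, with a median difference of 0.59 over its probes. Herpud1, a degradation factor, read -0.16, -0.06 and 0.13 against 0.79, 0.92 and 0.86, which was 0.76 above sham/vehicle (0.00764). Of these 3 genes, Dnajc3 and Hyou1 were below 0 on every vehicle array and above 0 on every Eviprostat array.

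The signal recognition particle gene Srp14 read -0.93, -0.59 and -0.38 with vehicle and -0.01, 0.03 and 0.17 with Eviprostat. Dad1, of the oligosaccharyl transferase, read -0.74, -0.70 and -0.41 against -0.15, 0.08 and 0, and the retrieval receptor Kdelr3 -0.94, -0.58 and -0.61 against -0.04, 0.18 and 0.13, with a median difference of 0.46 over its probes. The Srp14 call was lost without vehicle array 1 or Eviprostat array 2 or 3. Hspa5, the central chaperone of the compartment, differed by 0.27 ± 0.33 (limma adjusted p = 0.697, and 0.0331 with the replicate block), and by -0.01 without Eviprostat array 1. The members that fell are tied to the stress response: Ppp1r15a, which restores translation, read 1.32, 1.23 and 1.58 against 0.38, 0.29 and 0.34, a call lost with median centring (0.114), and Trib3 and Ddit3, of the pathway that can end in cell death, differed by -0.87 and -0.72. Without slide 1 (0.0854 and 0.184) and with median centring (0.138 and 0.0786) neither Trib3 nor Ddit3 was called.

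Median centring and the replicate block moved these counts more than those of the inflammatory lists. Cy5 alone moved them less, to 9, 6 and 8 higher from 8, 8 and 7, while the interleukin-1 list went from 7 to 10 lower. With median centring 0 genes were higher in each of the 3 lists, while the fitted values moved little (0.99 for Dnajc3 and 0.95 for Hyou1). With the replicate block 14, 17 and 14 were higher in the chaperone, translocation and vesicle lists, and on slides 2 and 3 alone 9, 14 and 11. Leaving out the third Eviprostat array gave 5, 4 and 1, and with only the 6 arrays the last 2 lists had 5 and 2. The translocation list had 4 higher without the first vehicle or second Eviprostat array, and the vesicle list 1 to 4 without the first vehicle array, the first or second Eviprostat array, or the second array of either sham group. Respiratory chain subunits were higher in 3 of 38 and lower in 0, against 4.34% and 8.07% over all genes. The higher ones likewise numbered 0 with median centring and 14 with the replicate block. They numbered 1 with Cy5 or the 6 arrays alone, an offset of 16, or without sham/vehicle array 2 or 3 or any 1 Eviprostat array.

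**Figure D3:**
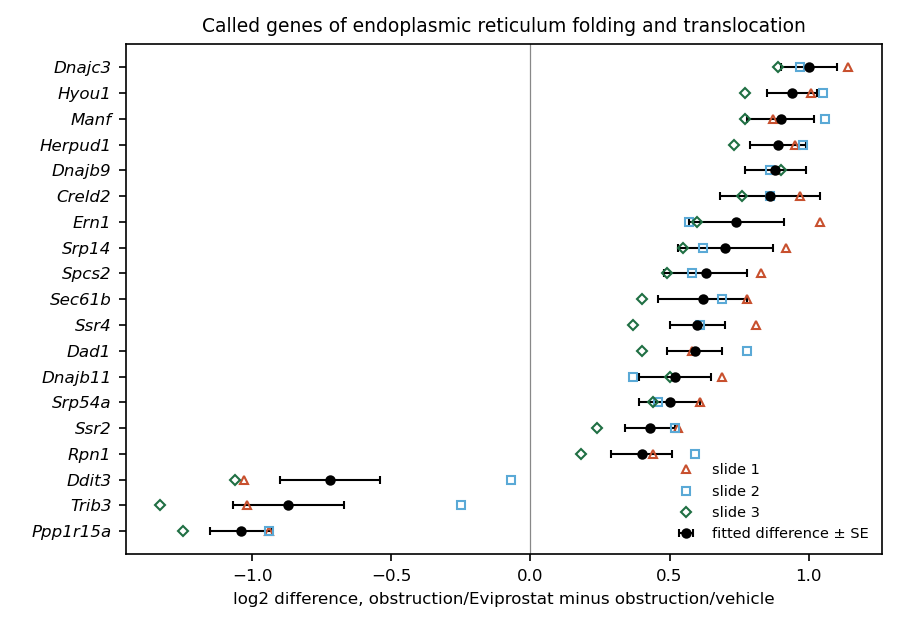
Differences on the log2 scale (horizontal axis) of the 19 genes of endoplasmic reticulum lists called in this comparison, with the fitted value and its standard error as a bar and the difference within each of the 3 slides as points. Ppp1r15a, Trib3 and Ddit3 lie to the left of 0 and the other 16 to the right, up to 1.00 for Dnajc3.

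The promoters of the higher chaperone genes were read for the element that the unfolded protein response uses, with the letters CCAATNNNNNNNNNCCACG on either strand. The 2 genes with a match are shown, with the element or its reverse complement in capitals, from RefSeq on GRCr8. Creld2, a chaperone-like protein of the compartment, is at chr7:121789158-121789277 on the plus strand and Dnajc3 at chr15:102432453-102432572 on the plus strand.
Creld2: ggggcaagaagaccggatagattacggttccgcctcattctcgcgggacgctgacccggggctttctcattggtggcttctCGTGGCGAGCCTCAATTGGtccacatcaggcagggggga
Dnajc3: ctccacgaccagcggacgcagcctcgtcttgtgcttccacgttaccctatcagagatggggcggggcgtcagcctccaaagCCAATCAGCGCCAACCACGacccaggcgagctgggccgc
The element was found in 2 of the 6 higher chaperone genes with a promoter in the table (33.3%), against 0.127% of the promoters of measured genes and 0.0765% of all. Creld2 itself differed by 0.86 ± 0.18 (limma adjusted p = 0.0107) and lost its call without the third Eviprostat array (0.0578) and with median centring. The list was chosen for the unfolded protein response, which uses this element, and is not a sample of promoters. No share was taken over its uncalled members. The search says nothing of what occupied these letters in the tissue.

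Genes of mitosis were called lower in part. In the mitosis list 12 of 31 were lower and 1 higher (median -0.36), and in the DNA replication list 4 of 30 lower and 0 higher. The replication share was not far above the 8.07% of all genes called lower. Cdk1, the mitotic kinase, read 0.46, 0.48 and 0.69 with vehicle and -0.66, -0.87 and -0.79 with Eviprostat (-1.32 ± 0.09, limma adjusted p = 2.16e-06), and differed by -0.77 from sham/vehicle (0.00256). Top2a, a topoisomerase of dividing cells, differed by -0.76, with a median of -0.39 over its probes, and lost its call with median centring (0.184). Kif2c, a microtubule-destabilizing kinesin, was the 1 higher member, at 0.96 ± 0.19. The counts of lower genes were 19 and 11 with the replicate block, 6 and 1 with median centring and 3 and 2 with only the 6 arrays, and without single arrays they ran from 4 to 14 for mitosis and from 2 to 7 for replication. The lowest mitosis count, 4, came without the second Eviprostat array, and 5 without array 3 of either group. Replication counted 2 without array 2 or 3 of either sham group, vehicle array 3 or any 1 Eviprostat array, and 7 without the first sham/Eviprostat array.

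The effect of Eviprostat in obstructed rats was also set against its effect in sham rats, as the difference of the 2 differences in the same fit. This test called 1012 genes lower (6.90%) and 488 higher (3.32%), with lower meaning a more negative effect in the obstructed rats. The 2 sham groups differed in labelled RNA, 1500 ng for vehicle and 300 ng for Eviprostat, while both obstructed groups had 300 ng. Sham dosing also began 5 days after the operation and not on the day after it. Obstruction, RNA amount and dosing start cannot be told apart in this test. The 10 largest were all secreted protein genes, 6 of them markers in the list of seminal vesicle and coagulating gland. Serpina5, for instance, read 5.70, 5.77 and 5.71 on the sham/Eviprostat arrays and 0.39, 0.27 and 0.34 on the sham/vehicle arrays, so that it was higher with Eviprostat in sham rats and lower in obstructed ones. The seminal vesicle list averaged 3.39 to 3.42 on the sham/Eviprostat arrays. Sbp differed by 2.65 and Trpv6 by 1.91 between Eviprostat and vehicle in sham rats, both opposite in sign to the obstructed rats, and Mmp7 by 0.01.

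**Figure D4:**
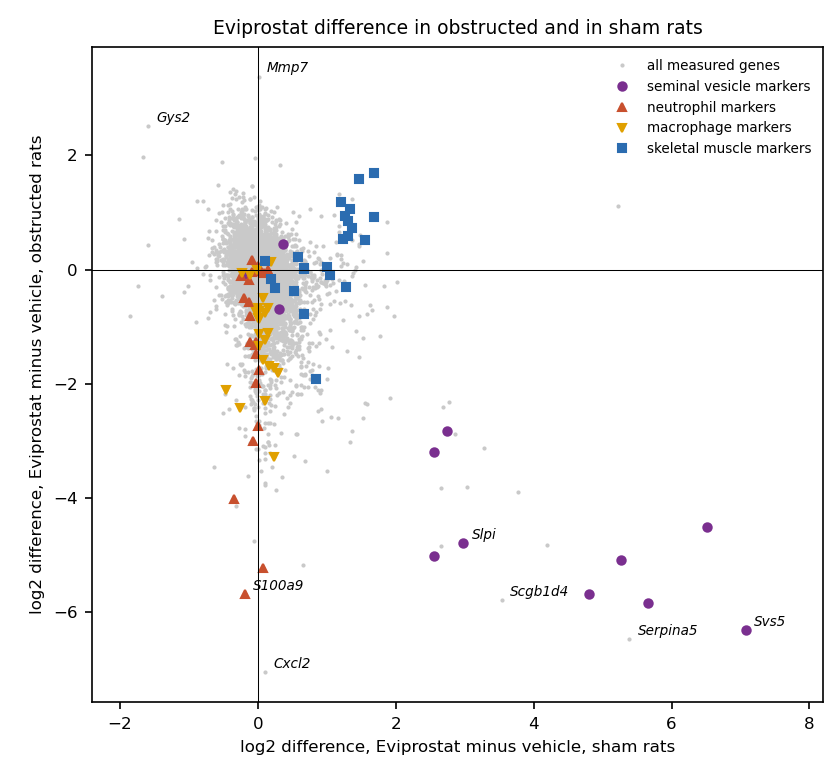
Difference between Eviprostat and vehicle on the log2 scale in obstructed rats (vertical axis) and in sham rats (horizontal axis) for seminal vesicle, neutrophil, macrophage and skeletal muscle markers, each point being 1 gene. Seminal vesicle markers such as Svs3a lie low and to the right, while neutrophil markers such as S100a9 lie low near 0 on the horizontal axis.

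Both dyes were examined singly because the Cy3 channel held the same RNA on all arrays. Between the same 6 arrays limma called 68 of 36098 probes in Cy3 (0.188%), 62 lower and 6 higher on the Eviprostat arrays, with 1059 at an unadjusted p under 0.05. Of the 62 probes lower in Cy3, 59 were also called lower in the ratio. Il1b gave Cy3 intensities of 3350, 2790 and 3370 on the vehicle arrays and 382, 432 and 466 on the Eviprostat arrays, and its Cy5 channel alone differed by -7.86 where the ratio differed by -3.62. Of the genes called lower, 58 differed by more than 1 on the log2 scale in Cy3, and of those called higher 0. The ratio and Cy5 alone therefore give different sizes for such genes.

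Svs4 showed the opposite. Its Cy5 was saturated on the vehicle arrays of slides 2 and 3, at 597000 and 591000 against 513000 and 553000 with Eviprostat. On slide 1, without saturation, Cy5 read 498000 with vehicle and 148000 with Eviprostat. Cy5 alone differed by -0.75 (limma adjusted p = 0.331), a value that saturation limits. Cy3 read 12400, 6200 and 6350 on the vehicle arrays and 158000, 133000 and 133000 on the Eviprostat arrays. Most of the ratio's difference of -5.01 ± 0.20 for Svs4, as measured, came from Cy3, which alone differed by 4.26. The size of the Cy5 fall is not known because of the saturation. For Cxcl2 Cy5 alone differed by -8.81 and for Svs3a the Cy3 channel differed by -3.04. Why a common reference differed between arrays was not tested.

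**Figure D5:**
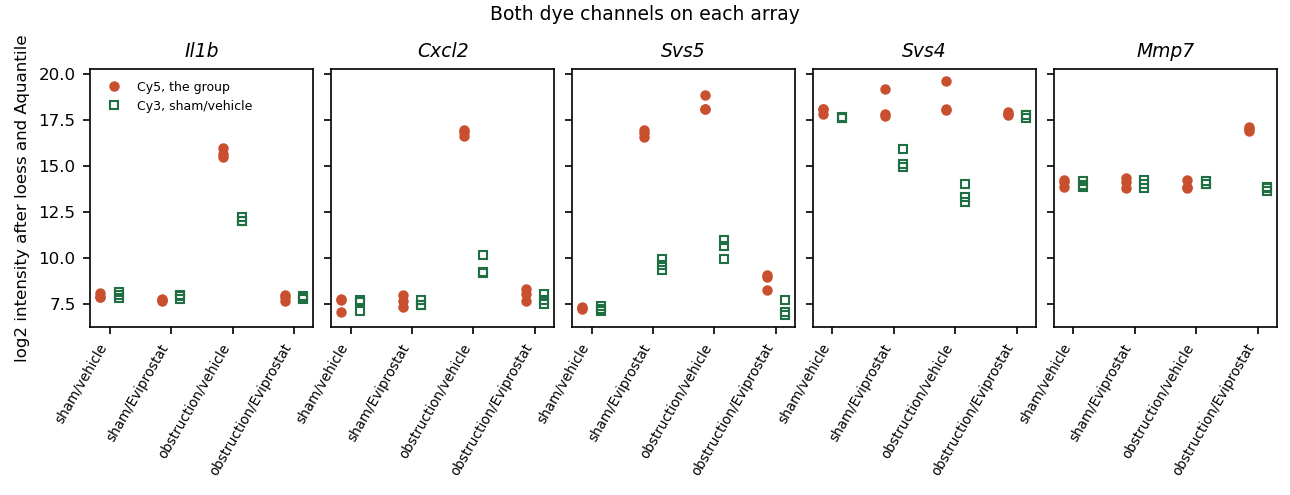
Normalized log2 intensity (vertical axis) of Cy5, the group's own RNA, and of Cy3, sham/vehicle RNA, on each of the 12 arrays for Il1b, Cxcl2, Svs5, Svs4 and Mmp7. Cy3 of Il1b lay at 12 to 12.19 on the obstruction/vehicle arrays and at 7.77 to 7.89 on the obstruction/Eviprostat arrays, although both carried sham/vehicle RNA.

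Cy5 was well above background in 78.4%, 86.7% and 88.4% of spots on the vehicle arrays and 70.9%, 78.7% and 84.4% on the Eviprostat arrays, lower with Eviprostat on each slide. Median Cy5 intensity over the 12 arrays ran from 401 to 677. The precision of each difference rests on 3 arrays a group and on a spread shared by the 4 groups.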

How the data were processed

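Messenger RNA of rat prostate was measured on 12 Agilent 2-colour arrays, 3 a group, and the comparison uses 6 of them. The deposited files hold, per the file headers, the intensities of each spot and of its surroundings in both dyes, from Agilent Feature Extraction (version 9.5.1.1 in the submitters' processing notes). The deposited log10 ratio of red over green processed signal was used only as an alternative, and the series' value table, log10 values per the file headers and equal to that ratio at every spot, was not analysed further.

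Intensities were background-corrected with normexp (offset 50), and log2 ratios were normalized by loess within each array in limma 3.58.1 under R 4.3.3. Control and outlier spots had no weight and were left out, saturated spots were kept, and spots of a probe were averaged. Of 41012 probes, 36098 with Cy5 well above background on at least 3 arrays were tested with lmFit and eBayes over all 12 arrays (1 mean per group, 8 residual degrees of freedom, Benjamini-Hochberg, threshold 0.05). The fit was checked on simulated data with independent noise on each array, which leave out deviations shared by the arrays of a slide. Probes were named through accessions or symbols in the GRCr8 annotation, 20760 had no gene name, and a gene is its brightest kept probe. The array design gives probe positions on rn3.

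Genes named are the 15 largest falls and 15 largest rises that moved alike on all 3 slides, up to 6 called and 3 uncalled genes of each of 63 lists, defining members of a list, and the 10 largest differences from sham rats; some of these are not reported here. The members and lists were chosen with earlier results of these data known. A dim probe's bound compares Cy5 levels alone, is open to dye bias, and so differs from the fitted ratio beside it. The labels call the arrays of a group biological replicates, but the labelling step names pooled tissue. Same-numbered arrays share a slide, which is where the pairing comes from. Alternatives changed the background correction, the normalization, the signal, the filter, the arrays in the fit, the replicate block and the variance model, and left out each array in turn.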

Additional observations from a re-analysis of the deposited data

Results flagged for a closer look

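The difference between Eviprostat and vehicle arrays was not the same in obstructed and sham rats by the limma test of the difference itself. It called 1012 genes more negative and 488 genes more positive in the obstructed rats. Obstruction cannot be told apart here from the amount of labelled RNA (1500 ng for sham/vehicle, 300 ng otherwise) or from the later dosing start in sham rats. Mmp7, which differed by 3.38 in obstructed and 0.01 in sham rats, belongs to the latter.

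The 10 largest differences of the effects were in secreted protein genes, each on the log2 scale as the effect in obstructed minus the effect in sham rats. Among seminal vesicle genes they were -13.39 for Svs5, -11.48 for Svs3a, -11.01 for Svs6, -10.48 for Spink1l and -10.35 for Svs7. Serpina5 gave -11.86. The secretoglobins Scgb1d4 and Scgb1d2 gave -9.34 and -9.02, and the whey acidic protein genes Slpi and Wfdc21 -7.77 and -7.68. In each of the 10 the value joins a fall in obstructed rats to a higher level with Eviprostat in sham rats, and Cy5 of Svs5 and Svs6 was saturated on 2 obstruction/vehicle arrays. The part of seminal vesicle or coagulating gland tissue in either group of samples was not tested.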

How the results depend on the processing

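Of 113 named genes called, 80 kept their call in every alternative and 27 lost it with median centring, the most for any setting. Against 1409 probes higher and 2127 lower, median centring gave 132 and 1197, no background correction 3119 and 4039, the scanner software's log ratio 7821 and 5700, Cy5 alone 2386 and 2988, only the 6 arrays 664 and 1104, and the replicate block 4121 and 4373. Leaving out 1 array at a time gave 672 to 2608 higher and 1210 to 3766 lower, with the highest counts without obstruction/vehicle array 2, and the lowest without obstruction/Eviprostat array 2 for the rises and array 3 for the falls. The difference from the effect in sham rats was called in 3127 probes, in 1017 with median centring, 5830 with no background correction, 11711 with the scanner's ratio and 7919 with the replicate block, and in 1819 to 5857 without single arrays. The causes were not tested. An offset of 16, no filter or the stricter filter on dim probes and the intensity trend moved the 2 main counts by less than 1.5 times. The reference channel had 68 probes called and 92 with the replicate block. The paired fit with the replicate block on all 12 arrays ended no call of a gene named here. Signal limits what dim probes show: where a group had no array above background, only a bound is given. Pooled tissue, a fixed position on the slide and the lack of a dye swap limit all comparisons.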

Other observations

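Iron and heme genes were lower in 11 of 24 and higher in 0 (median -0.54). Lcn2, which binds the siderophores bacteria use to take iron, read 3.48, 3.58 and 4.12 with vehicle and -0.23, -0.33 and -0.33 with Eviprostat (-4.02 ± 0.16, limma adjusted p = 3.5e-08). Haptoglobin, Hp, which captures free hemoglobin, differed by -2.72 ± 0.22 and transferrin, Tf, by -2.11 ± 0.27. The ferritin heavy chain Fth1, among the brightest probes of the list, differed by -0.98 ± 0.11, a call lost with median centring (adjusted p = 0.519). Lysosomal proteases and hydrolases were lower in 11 of 25 and higher in 1, but lower in 4 with median centring. Cathepsin B, Ctsb, differed by -2.52 ± 0.24 and legumain, Lgmn, by -2.14 ± 0.25.

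Polyamines are abundant in prostatic fluid, which is rich in spermine. Of 17 genes 4 were lower and 1 higher, against 8.07% and 4.34% over all genes. Arg1, arginase, which makes the ornithine that polyamines start from, read 2.32, 2.48 and 2.8 with vehicle and 0.41, 0.48 and 0.45 with Eviprostat (-2.08 ± 0.12, limma adjusted p = 7.61e-07). Sat1, which acetylates spermine for breakdown, fell by 1.57 ± 0.32, while the synthetic enzymes Odc1 (0.52, adjusted p = 0.22) and Amd1 (0.92, 0.116) were not called, although both were with the replicate block (0.012 and 6.8e-06). Of 16 zinc transporters and metallothioneins 3 were lower and 4 higher, against the same 8.07% and 4.34%. The importers split: Slc39a10 differed by 1.14 ± 0.23, a call lost with median centring, and Slc39a8 by -1.32 ± 0.24 on its brightest probe, with a median of -0.41 over its probes. With median centring the zinc list had 1 lower and 0 higher, and without vehicle array 1 or Eviprostat array 2 or 3 it had 2 higher, and 1 with an intensity trend in the variance. The inhibitors of differentiation Id1, Id2 and Id3, targets of bone morphogenetic protein signalling, differed by -1.38, -1.40 and -1.48 with adjusted p from 2.97e-05 to 0.000122, calls lost with median centring (0.0985 to 0.129).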
